A study of Mus musculus with 18 samples.

Results

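A group of 10 imprinted genes was followed in the developing cortex of mice lacking the m6A demethylase Fto or the m6A methyltransferase Mettl3. The members were Meg3, Rian, Mirg, H19, Igf2, Dlk1, Peg3, Cdkn1c, Ndn and Plagl1. They were named as a group of imprinted growth and noncoding genes and found by matching their symbols to Ensembl identifiers. All 10 were present among the 55153 genes of the RNA-seq count table and among the 54838 genes of the Ribo-seq count table. RNA-seq measured transcript abundance and ribosome profiling (Ribo-seq) measured the RNA fragments that ribosomes protect from RNase I. Each assay held 9 libraries from cerebral cortex at embryonic day 15.5, with 3 in each of 3 groups. Ctrl was labelled wild type. F-cKO carried Emx1-Cre with homozygous floxed Fto (Fto flox/flox), which removes an exon of Fto, and M-cKO carried Emx1-Cre with homozygous floxed Mettl3 (Mettl3 flox/flox) and loses exons of Mettl3. The strain label was C57BL/6 in all groups, and the study's methods describe a mixed floxed background. The paper names control littermates for its comparisons of mice. It does not say whether the sequenced Ctrl libraries were littermates of either knockout, and both knockouts were compared with the same Ctrl libraries. Emx1-Cre acts in the progenitors of the dorsal telencephalon and their offspring, and interneurons, vessels, meninges and blood cells in the dissected tissue come from other lineages. The labels call the 3 libraries of a group biological repeats without tying them to single embryos, so the p-values below measure the spread between these libraries.

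Imprinted genes are expressed mainly from the maternal or the paternal copy, according to DNA methylation set in the germ line. Many sit in clusters in which a long noncoding RNA such as H19 or Meg3 is made from the maternal chromosome while a growth-promoting gene such as Igf2 or Dlk1 is made from the paternal one. Several members act on embryonic growth, with Igf2 as a secreted growth factor and Cdkn1c as a brake on the cell cycle, and several are prominent in neurons, such as Ndn and Peg3.

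In the F-cKO cortex the transcript of Plagl1, which encodes a zinc finger transcription factor of this network, was 2.17-fold higher than in Ctrl, and that of Peg3, another zinc finger gene, was 1.28-fold higher. The transcript of Mirg, a long noncoding RNA that hosts microRNAs, was lower, at 0.669 of Ctrl. In the M-cKO cortex these 3 transcripts did not pass the test, and Ndn, which encodes necdin, was 1.25-fold higher. In Ribo-seq edgeR called no member in any comparison, while it called 14.6% of all genes tested in M-cKO against Ctrl. In that comparison DESeq2 called 2 of 9 members, beside 3117 of 14348 genes. Of the 24 microRNA genes tested between Meg3 and Mirg, 12 were called higher in M-cKO Ribo-seq, beside 25.8% of the other microRNA genes and 7.13% of all genes. That count was 1 in a single fit over all groups and 2 or 3 when a Ctrl library was left out. Over all genes the number called higher also fell, from 1020 to 29 in the single fit and to 115 to 269 without a Ctrl library.

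A few facts of the whole series bear on these values. Total counts per library ran from 18504094 to 22592406 in RNA-seq and from 10973699 to 35853227 in Ribo-seq, with F-cKO replicate 2 the smallest Ribo-seq library. Fto RNA stood at 42.8, 99.2 and 32.2 CPM (read counts relative to the library total, with TMM scaling) in the 3 F-cKO libraries against 111 to 147 in Ctrl, so F-cKO replicate 2 kept more Fto signal than the other two. Fto footprints were at 25.6 to 43.1 CPM in F-cKO and 188 to 276 in Ctrl, a log2 fold change of -2.67 ± 0.25 that did not pass the test (adjusted p = 0.350, edgeR). The F-cKO Ribo-seq fit thus did not call the deleted gene itself, and the absence of calls among the members in that comparison is to be read beside this. Mettl3 footprints were lower in M-cKO, with a log2 fold change of -0.55 ± 0.09 (SE, adjusted p = 0.0157, quasi-likelihood test of edgeR, Benjamini-Hochberg adjusted), while Mettl3 RNA counted over the whole gene was higher, by 0.50 ± 0.09 (adjusted p = 0.00221). The cortical markers Emx1 and Tbr1 each had a mean of at least 1 FPKM in every group. Of the sex markers, Xist (female) ran from 29.36 to 50.19 FPKM in Ctrl and from 16.99 to 56.05 in F-cKO. Xist in M-cKO stood at 0.00491, 7.916 and 20.75. Eif2s3y (male) ran from 6.56 to 8.59 FPKM in Ctrl and from 5.965 to 10.35 in F-cKO. Eif2s3y in M-cKO stood at 15.95, 12.01 and 3.402. None of the 5 sex markers was called in RNA-seq. The part of embryo sex in the members' values was not tested. Summed markers of the ganglionic eminence, a neighbouring ventral region, ran from 81.3 to 83.4 FPKM in Ctrl, from 79.9 to 111 in F-cKO, with M-cKO from 118 to 160. Liver and skeletal muscle markers, from tissues rich in H19 and Igf2 before birth, summed to at most 1.91 and 2.33 FPKM in any RNA-seq library. Choroid plexus markers summed to between 71.6 and 817 FPKM within Ctrl alone, and the 7 diencephalon markers to 2.80 to 4.49 FPKM in Ctrl, 5.01 to 5.87 in F-cKO, with M-cKO at 5.88 to 6.76.

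The members spanned a wide range of levels. On the per-length scale of the deposited FPKM, Ndn was the highest in Ctrl RNA-seq at 90.8 ± 9.20 FPKM (SD, n = 3), followed by Cdkn1c at 41.4 ± 6.89 and H19 at 39.3 ± 20.7, whose ranges overlapped. Peg3 at 7.66 ± 0.429 FPKM and Plagl1 at 7.60 ± 1.42 came next and also overlapped. Mirg lay at 1.67 ± 0.0364 and Igf2 at 0.902 ± 0.640, again overlapping because Igf2 reached 1.64 in a single library. Rian at 0.123 ± 0.0312 and Meg3 at 0.0226 ± 0.00878 were below all of these, and Dlk1 was listed at 0 in every RNA-seq library. In Ctrl Ribo-seq the order by RPKM began with Ndn at 154.5 ± 26.1, Cdkn1c at 22.4 ± 0.688, Peg3 at 16.5 ± 1.18 and Plagl1 at 10.5 ± 0.919, none of which overlapped its neighbour. Rian at 3.90 ± 1.45, H19 at 2.95 ± 1.46 and Meg3 at 2.37 ± 0.544 followed with overlapping ranges, and Mirg at 0.742 ± 0.1002, Dlk1 at 0.337 ± 0.0751 and Igf2 at 0.102 ± 0.0224 RPKM closed the order. The noncoding RNAs Rian and Meg3 therefore stood at the low end of RNA-seq and in the middle of Ribo-seq.

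**Figure D1:**
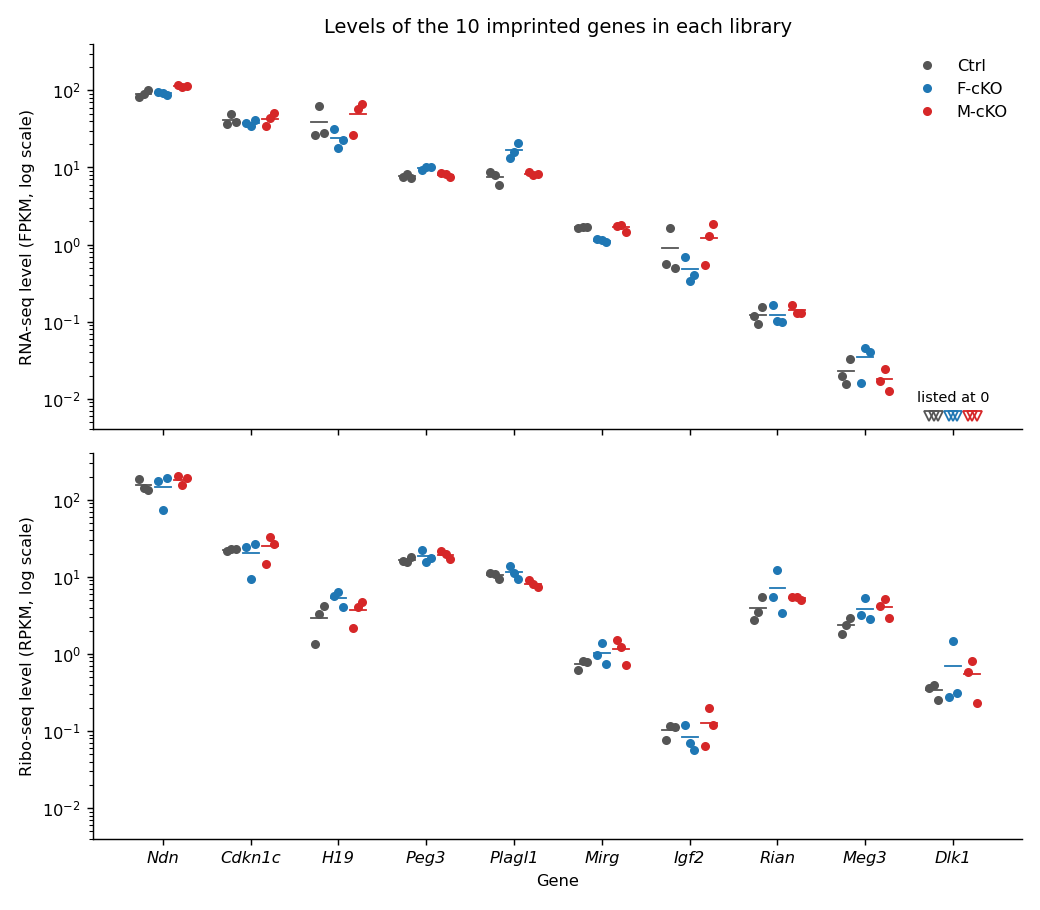
Level of each member in each library, as deposited FPKM for RNA-seq (top) and RPKM for Ribo-seq (bottom) on log axes, with a point per library, a short line at the group mean and open triangles for values listed at 0. Ndn is highest in both assays, and Dlk1 is listed at 0 in all 9 RNA-seq libraries but has footprints in all 9 Ribo-seq libraries.

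The RNA-seq values of Dlk1, Meg3 and Rian need care. Meg3 had 5 to 17 reads per RNA-seq library but 930 to 1428 footprints per Ribo-seq library, and Rian had 36 to 68 reads but 1219 to 2524 footprints. Of 12611 protein-coding genes with footprints in every Ribo-seq library, 57 were listed at 0 in all RNA-seq libraries, and 28 of these had a mean of at least 100 footprints. Dlk1 is thus not alone in being listed at 0, and no fold change was formed for its transcript. Why these genes have few or no RNA-seq reads was not tested. Whether the Ribo-seq counts of the noncoding members came from ribosomes was not tested either. The counting rule for overlapping genes and strand is not given in the sources used here, and the members' counts are uncertain where genes overlap. In RefSeq, Meg3 and Rian overlap Rtl1, Igf2 overlaps Igf2os, Peg3 overlaps Peg3os, Ndn overlaps Gm32061 and Plagl1 overlaps Hymai.

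Plagl1 (ENSMUSG00000019817, chr10:13090832-13131694, GRCm38.p6) showed the most marked difference of the members that passed the test against Ctrl. Its transcript stood at 68.2, 63.8 and 47.6 CPM in the Ctrl libraries, at 103.5, 126.0 and 164.3 in F-cKO, and at 68.5, 62.5 and 64.4 in M-cKO. The lowest F-cKO library lay above the highest Ctrl library, while M-cKO fell within or just above the Ctrl range. The log2 fold change was 1.12 ± 0.17 in F-cKO (SE, adjusted p = 0.00409, edgeR quasi-likelihood test) and 0.11 ± 0.11 in M-cKO (adjusted p = 0.499). Set directly against F-cKO, M-cKO gave -1.02 ± 0.14 (adjusted p = 0.000702, edgeR). The F-cKO call held in all 11 alternative fits, over which the log2 fold change ran from 0.93 to 1.27 and the adjusted p reached at most 0.0221. Markers of cortical progenitors were high in the same group. Pax6 stood at 6.00, 5.64 and 4.15 FPKM in Ctrl, at 7.61, 8.09 and 10.3 in F-cKO, with M-cKO at 5.75, 5.77 and 6.05, and Eomes ran from 30.1 to 46.8 FPKM in Ctrl, from 54.5 to 68.8 in F-cKO, with M-cKO from 45.1 to 52.1. Pax6 and Eomes were chosen from the cortical markers after their values were seen, and their part in the Plagl1 value was not tested. Plagl1 footprints did not follow this order. They stood at 72.2, 69.1 and 61.2 CPM in Ctrl, at 86.0, 80.8 and 59.6 in F-cKO, with M-cKO at 57.6, 54.9 and 48.3. The F-cKO footprints overlapped Ctrl, and all 3 M-cKO libraries lay below all 3 Ctrl libraries, with a log2 fold change of -0.36 ± 0.11 that missed the threshold (adjusted p = 0.0673, edgeR). DESeq2 placed this value past the threshold at -0.35 (adjusted p = 0.0429), and over the 13 alternative fits the adjusted p ran from 0.0429 to 0.327.

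Peg3 (ENSMUSG00000002265, chr7:6703892-6730462) was also higher in F-cKO RNA-seq, by a smaller margin. Its transcript stood at 99.6, 109.7 and 99.7 CPM in Ctrl, at 125.5, 134.9 and 137.2 in F-cKO, with M-cKO at 112.3, 109.3 and 100.6. F-cKO did not overlap either other group, and M-cKO overlapped Ctrl. The log2 fold change was 0.35 ± 0.06 in F-cKO (adjusted p = 0.00699, edgeR) and 0.05 ± 0.07 in M-cKO (adjusted p = 0.589). M-cKO lay below F-cKO by a log2 fold change of -0.31 ± 0.07 (adjusted p = 0.00750, edgeR). Peg3 footprints stood at 174.8, 170.4 and 195.9 CPM in Ctrl, at 237.3, 192.9 and 193.2 in F-cKO, with M-cKO at 237.5, 227.1 and 189.3. Both knockout groups overlapped Ctrl in footprints, and neither difference passed the test. Without a stated use of strand, reads of Peg3 and its antisense gene Peg3os cannot be told apart.

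Ndn (ENSMUSG00000033585, chr7:62348277-62349928) encodes necdin, a MAGE family protein of post-mitotic neurons. Its transcript was the one member that rose in M-cKO against Ctrl. The libraries stood at 306.4, 330.6 and 377.7 CPM in Ctrl, at 357.0, 343.6 and 329.2 in F-cKO, with M-cKO at 436.0, 414.7 and 426.4. M-cKO overlapped neither of the other groups. The log2 fold change was 0.32 ± 0.08 in M-cKO (adjusted p = 0.00780, edgeR), 0.01 ± 0.08 in F-cKO (adjusted p = 0.947) and 0.30 ± 0.06 between M-cKO and F-cKO (adjusted p = 0.00545). The M-cKO call held in all 11 alternative fits, with log2 fold changes from 0.26 to 0.42. The ganglionic eminence markers named above were higher in the same 3 libraries, with 8 of 8 called higher in M-cKO against Ctrl, beside 15.5% of all genes. In F-cKO against Ctrl 4 of the 8 were called higher, beside 11.5% of all genes. The summed diencephalon markers were also highest in these 3 libraries, with 2 of 4 tested called higher in M-cKO and 1 of 4 in F-cKO against Ctrl, beside the same shares of all genes. The part of both marker lists in the Ndn value was not tested. In bulk tissue a change in the number of cells of a type and a change in RNA per cell cannot be told apart. Ndn footprints stood at 556.5, 434.1 and 411.4 CPM in Ctrl, at 507.6, 256.4 and 584.4 in F-cKO, with M-cKO at 616.8, 500.9 and 575.9. These ranges overlapped, and the M-cKO log2 fold change of 0.25 ± 0.14 did not pass the test (adjusted p = 0.248, edgeR).

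**Figure D2:**
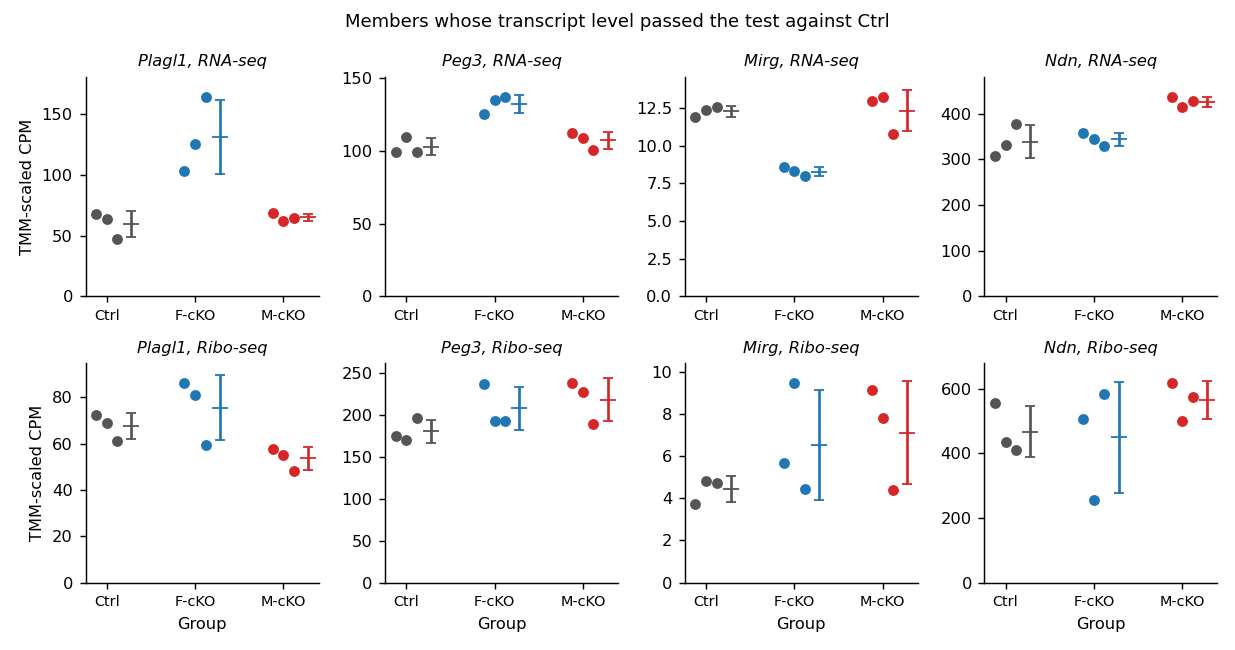
Plagl1, Peg3, Mirg and Ndn in RNA-seq (top row) and Ribo-seq (bottom row) as TMM-scaled CPM, with a point per library and the mean with SD beside each group (n = 3). Plagl1 and Peg3 transcripts are higher and Mirg is lower in F-cKO, Ndn is higher in M-cKO, and the footprint ranges of the knockouts overlap Ctrl except for Plagl1 in M-cKO.

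Meg3, Rian and Mirg lie one after the other on chromosome 12, downstream of Dlk1, and carry a dense row of small RNA genes. Meg3 (ENSMUSG00000021268) spans chr12:109540996-109571729, Rian (ENSMUSG00000097451) spans chr12:109603945-109661716 and Mirg (ENSMUSG00000097391) spans chr12:109734981-109749458. Dlk1 (ENSMUSG00000040856), a transmembrane relative of the Notch ligands, lies at chr12:109452485-109463336. Mirg was the only one of the 4 with a call in RNA-seq. Its transcript stood at 11.9, 12.3 and 12.6 CPM in Ctrl, at 8.56, 8.31 and 7.96 in F-cKO, with M-cKO at 12.95, 13.2 and 10.8. All F-cKO libraries lay below all others, and the log2 fold change was -0.58 ± 0.11 (adjusted p = 0.00898, edgeR). The M-cKO difference from Ctrl was 0.00 ± 0.12 on the log2 scale (adjusted p = 0.991), and the difference of M-cKO from F-cKO was 0.57 ± 0.13 (adjusted p = 0.0103, edgeR). The F-cKO call held in all 11 alternative fits. In Ribo-seq, Mirg stood at 3.74, 4.83 and 4.73 CPM in Ctrl, at 5.65, 9.44 and 4.43 in F-cKO, with M-cKO at 9.12, 7.82 and 4.38. Both knockout groups thus overlapped Ctrl, in each case through replicate 3.

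Meg3 and Rian had few RNA-seq reads, and their RNA-seq log2 fold changes were not past the threshold, at 0.61 ± 0.49 for Meg3 in F-cKO and at -0.03 ± 0.28 and 0.20 ± 0.24 for Rian in F-cKO and M-cKO. In Ribo-seq, Meg3 stood at 27.1, 34.9 and 43.4 CPM in Ctrl, at 46.5, 88.7 and 42.5 in F-cKO, with M-cKO at 61.9, 81.2 and 43.1. The M-cKO log2 fold change of 0.80 ± 0.26 missed the threshold (adjusted p = 0.0717, edgeR), with 2 of 3 libraries above all Ctrl libraries. DESeq2 placed it past the threshold at 0.81 (adjusted p = 0.00426), as did the fit without M-cKO replicate 3, at 1.01 (adjusted p = 0.0245), while the widest alternative gave an adjusted p of 0.256. Rian stood at 40.6, 51.4 and 82.9 CPM in Ctrl, at 79.4, 209.0 and 51.1 in F-cKO, with M-cKO at 82.1, 87.5 and 75.1. Its M-cKO log2 fold change was 0.46 ± 0.24 (adjusted p = 0.213, edgeR) and became 0.82 ± 0.14 without Ctrl replicate 3 (adjusted p = 0.0406). For Mirg the M-cKO value was 0.66 ± 0.29 (adjusted p = 0.154, edgeR) and rose to 0.92 ± 0.20 without M-cKO replicate 3 (adjusted p = 0.0278). The fitted values of the 3 noncoding RNAs were above 0 in both knockouts, and those of F-cKO were 0.75 ± 0.34 for Meg3, 0.95 ± 0.55 for Rian and 0.54 ± 0.35 for Mirg, none past the threshold. F-cKO replicate 2, the shallowest Ribo-seq library, held the highest value of each of them, and without it the F-cKO values were 0.34 for Meg3, 0.16 for Rian and 0.18 for Mirg. In this library the endothelial markers summed to 93.8 RPKM, against 5.69 to 11.2 in the other libraries. The part of these markers in the values of Meg3, Rian, Mirg and Dlk1 was not tested. Dlk1 footprints were few, with 25 to 84 per library, and stood at 1.65, 1.85 and 1.18 CPM in Ctrl, 1.25, 7.78 and 1.43 in F-cKO, with M-cKO at 2.74, 4.02 and 1.095. F-cKO replicate 2 stood apart, and the F-cKO log2 fold change of Dlk1 was 1.12 ± 0.76 with it and -0.22 ± 0.33 without it, neither past the threshold.

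The stretch from the start of Meg3 to the end of Mirg holds 60 annotated microRNA genes and 13 small nucleolar RNA genes. MicroRNAs guide Argonaute proteins to messenger RNAs through the seed, the bases 2 to 8 of the mature strand. In RNA-seq none of the microRNA genes had enough reads to enter the test, whereas 24 microRNA genes and 3 small nucleolar RNA genes had Ribo-seq counts in all libraries. The Ribo-seq libraries were built from purified fragments of 20 to 38 nt, a range that includes mature microRNAs, and whether the counts at these genes came from ribosomes was not tested. The counts are given per gene, so the arm they came from is not known. In M-cKO against Ctrl, 12 of the 24 passed the test as higher and none as lower, beside 7.13% called higher among all 14314 genes tested. Among the 159 other microRNA genes tested, 41 were called higher, which is 25.8%, and none lower. The median log2 fold change was 2.33 in the locus, 1.03 in the other microRNA genes and 0.00 in all genes tested. Higher counts in M-cKO thus occurred in both sets, and the difference between the locus and the other microRNA genes was not tested.

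The mature strands of the 5 locus genes with the smallest adjusted p, and of the neighbours Mir379 and Mir411, which share a seed on their 3p strands, are given 5′ to 3′ from RefSeq (GRCm38.p6, plus strand) with the seed in capitals. They are shown because all 7 genes were called higher in M-cKO, and so that the strands can be compared.
miR-495-5p: gAAGUUGCccauguuauuuuucg
miR-495-3p: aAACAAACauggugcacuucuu
miR-369-5p: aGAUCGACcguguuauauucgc
miR-369-3p: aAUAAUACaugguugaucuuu
miR-543-5p: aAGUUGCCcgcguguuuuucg
miR-543-3p: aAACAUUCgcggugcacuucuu
miR-487b-5p: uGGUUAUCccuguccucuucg
miR-541-5p: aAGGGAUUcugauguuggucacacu
miR-541-3p: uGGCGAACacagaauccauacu
miR-379-5p: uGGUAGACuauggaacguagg
miR-379-3p: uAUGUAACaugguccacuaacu
miR-411-5p: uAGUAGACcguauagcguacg
miR-411-3p: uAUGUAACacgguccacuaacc
The 3p strands of Mir495 (chr12:109718795-109718816) and Mir543 (chr12:109717304-109717325) are identical at 18 of 22 positions but differ within the seed. The 3p strands of Mir379 (chr12:109709102-109709123) and Mir411 (chr12:109710225-109710246) are identical at 20 of 22 positions, the seed included. Across the 115 mature strands of the locus genes, Mir675 and Mir483, only 9 of 106 seeds were shared by more than 1 strand.

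Mir495 stood at 5.17, 10.05 and 7.32 CPM in Ctrl, at 6.45, 74.7 and 6.36 in F-cKO, and M-cKO had 89.3, 119.5 and 37.7. Ctrl and M-cKO did not overlap, while F-cKO replicate 2 lay within the M-cKO range, and the M-cKO log2 fold change over Ctrl was 3.43 ± 0.45 (adjusted p = 0.00827, edgeR). Mir543 stood at 9.55, 19.8 and 8.57 CPM in Ctrl, at 9.80, 9.996 and 11.7 in F-cKO, and M-cKO had 145.3, 241.8 and 66.0, with a log2 fold change of 3.56 ± 0.53 over Ctrl (adjusted p = 0.0115, edgeR). Mir369, which lies inside Mirg, stood at 4.21, 6.77 and 4.105 CPM in Ctrl, at 3.45, 14.99 and 4.04 in F-cKO, and M-cKO had 36.0, 44.6 and 17.4, with a log2 fold change of 2.68 ± 0.37 (adjusted p = 0.00938, edgeR). For Mir543 and Mir369 every M-cKO library was above every library of the other groups, and in all 3 genes M-cKO replicate 3 was the lowest of its group. Mir541, also inside Mirg, had a log2 fold change of 2.14 ± 0.40 (adjusted p = 0.0188) and Mir487b of 2.46 ± 0.42 (adjusted p = 0.0155, edgeR). Mir381, singled out after its values were seen as the gene with the most counts, stood at 94.4, 151.1 and 82.5 CPM in Ctrl, at 24.6, 550.9 and 103.9 in F-cKO, and M-cKO had 1105, 576.8 and 147.5. Its M-cKO replicate 3 lay within the Ctrl range, and it had a log2 fold change of 2.46 ± 0.64 (adjusted p = 0.0424, edgeR). The 2 genes with a fitted value below 0 were Mir493 and Mir654, at -0.50 ± 1.00 and -0.14 ± 0.91.

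Leaving out 1 Ribo-seq library at a time, the median log2 fold change of the 24 genes stayed between 1.90 and 2.70, but the number called higher was 2 without Ctrl replicate 1, 3 without Ctrl replicate 2, 3 without Ctrl replicate 3, 5 without M-cKO replicate 1, 9 without M-cKO replicate 2 and 16 without M-cKO replicate 3. A single fit over all 3 groups called 1, DESeq2 called 16 and the other alternatives that kept all libraries called 12 or 13. Over all genes, 1020 were called higher in the main fit, 29 in the single fit, 1615 with DESeq2 and 681 to 1166 in those other alternatives. Without Ctrl replicates 1, 2 and 3 in turn they numbered 230, 115 and 269. Without M-cKO replicates 1, 2 and 3 in turn they numbered 500, 771 and 1303. Together the 24 genes summed to 298, 449 and 225.9 CPM without TMM scaling in Ctrl, 151.2, 1157 and 288 in F-cKO, and M-cKO had 2368, 2049 and 621.7, so the groups Ctrl and M-cKO did not overlap in this sum. In F-cKO no locus gene was called by edgeR or DESeq2, none had an unadjusted p below 0.05, and the median log2 fold change was 0.72 with and -0.55 without F-cKO replicate 2. In M-cKO against F-cKO edgeR called none, 7 had an unadjusted p below 0.05, DESeq2 called 5, and the median was 1.37, beside 1.59 for 158 other microRNA genes and -0.07 for all genes. Over all 14262 genes tested in this comparison edgeR called 0.0%, 1154 had an unadjusted p below 0.05 and DESeq2 called 200. Of the small nucleolar RNA genes, AF357341, AF357428 and DQ267102 were tested and none was called in any comparison. Their sum reached 499.9 unscaled CPM in Ctrl replicate 3 against 52.0 and 99.9 in the other Ctrl libraries.

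**Figure D3:**
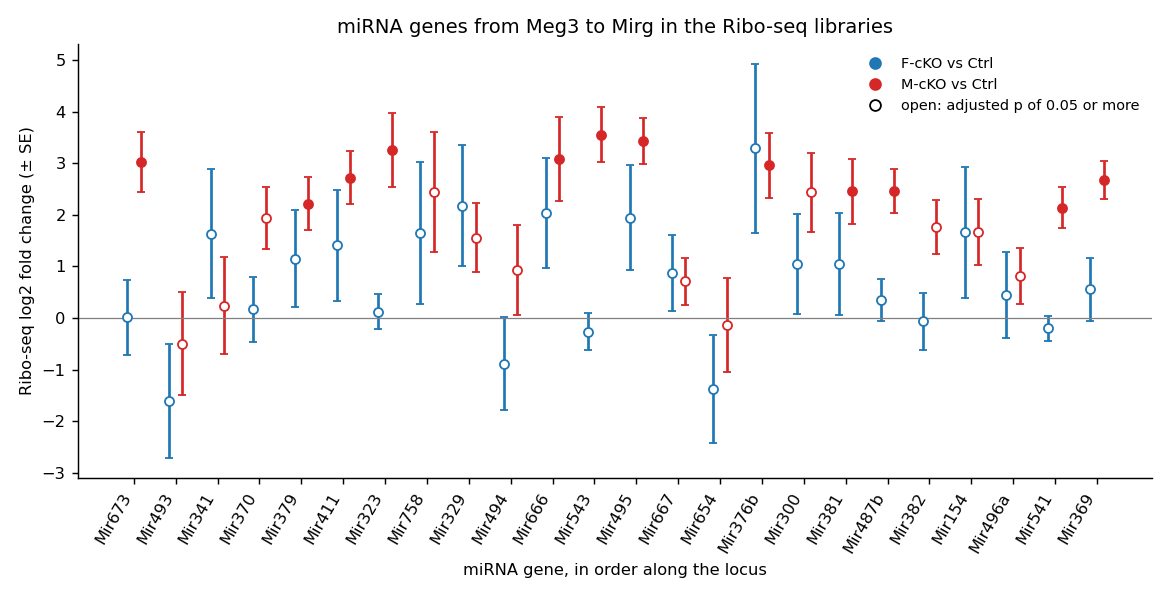
Ribo-seq log2 fold change with SE of the 24 tested microRNA genes between Meg3 and Mirg, in their order along the locus, for F-cKO and M-cKO against Ctrl. Filled points passed the test (adjusted p below 0.05), which 12 M-cKO and no F-cKO values did, and 22 of the 24 M-cKO values lie above 0.

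H19 and Igf2 lie next to each other on chromosome 7 and moved together from library to library. H19 (ENSMUSG00000000031, chr7:142575530-142578146) makes a maternal noncoding RNA and Igf2 (ENSMUSG00000048583, chr7:142650768-142666816) makes the paternal growth factor. H19 transcripts stood at 65.1, 156.9 and 70.9 CPM in Ctrl, at 77.8, 44.1 and 56.0 in F-cKO, with M-cKO at 64.8, 143.1 and 162.2. Igf2 transcripts stood at 3.22, 9.47 and 2.93 CPM in Ctrl, at 3.96, 1.92 and 2.35 in F-cKO, with M-cKO at 3.11, 7.51 and 10.5. Ctrl replicate 2, M-cKO replicate 2 and M-cKO replicate 3 were high for both genes, and the other 6 libraries were low. The ratio of H19 to Igf2 in FPKM stayed between 36.0 and 56.4. Among 17376 genes compared over the 9 RNA-seq libraries, Igf2 had the pattern closest to H19 and H19 the pattern closest to Igf2, with a root mean square difference of 0.14 on the centred log2 scale against a root mean square of 0.65 for H19 itself and 0.76 for Igf2. The mean within-group coefficient of variation was 41.1% for H19 and 54.4% for Igf2, against a median of 9.43% over all these genes.

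The spread within groups limits what can be said of the knockouts here. Neither gene passed the test in F-cKO against Ctrl, at -0.73 ± 0.32 for H19 (adjusted p = 0.128, edgeR) and -0.94 ± 0.46 for Igf2 (adjusted p = 0.170). Without Ctrl replicate 2 these values shrank to -0.21 and -0.18. With no filter on low counts they passed the threshold, at -0.73 for H19 (adjusted p = 1.67e-17) and -0.93 for Igf2 (adjusted p = 0.000734), as did H19 in M-cKO at 0.35 (adjusted p = 1.63e-05, edgeR). These fold changes were close to those of the filtered fits, but the SE was smaller. For H19 it was 0.08 without the filter and 0.32 with it in F-cKO, and 0.07 and 0.35 in M-cKO. Why the SE fell was not tested, and the libraries of these groups overlapped. In M-cKO against Ctrl the values were 0.33 ± 0.35 and 0.42 ± 0.46 (adjusted p = 0.516 and 0.538, edgeR), and without Ctrl replicate 2 they became 0.86 and 1.19 and passed the threshold (adjusted p = 0.0368 and 0.0425). Without M-cKO replicate 3 they were 0.09 and 0.01 (adjusted p = 0.896 and 0.989, edgeR). M-cKO was higher than F-cKO by 1.05 ± 0.29 for H19 (adjusted p = 0.0226, edgeR) and 1.35 ± 0.40 for Igf2 (adjusted p = 0.0304), although M-cKO replicate 1 lay within the F-cKO range for both. The H19 call was lost without F-cKO replicate 2 at 0.89 (adjusted p = 0.0863), without M-cKO replicate 2 at 0.95 (adjusted p = 0.0707) and without M-cKO replicate 3 at 0.82 (adjusted p = 0.0979). The Igf2 call was lost without F-cKO replicate 2 at 1.16 (adjusted p = 0.108), without F-cKO replicate 3 at 1.26 (adjusted p = 0.0639), without M-cKO replicate 2 at 1.32 (adjusted p = 0.0766) and without M-cKO replicate 3 at 0.95 (adjusted p = 0.134).

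Markers of the meninges and fibroblasts, of the choroid plexus and of erythroid cells were each highest in the same 3 libraries. The 10 meningeal and fibroblast markers, which include Col1a1, Dcn, Aldh1a2 and Slc6a13, summed to 17.2, 34.1 and 17.7 FPKM in Ctrl, to 11.01, 4.52 and 12.9 in F-cKO and to 9.54, 33.9 and 44.0 in M-cKO. Of the 10, 5 were called lower in F-cKO against Ctrl, beside 9.57% of all genes, none was called in M-cKO against Ctrl, beside 29.6% called in either direction, and 6 were called higher in M-cKO against F-cKO, beside 13.1%. No marker of this list was at 0 in all libraries. Choroid plexus markers summed to 71.6, 817 and 322 FPKM in Ctrl, to 402, 279 and 391 in F-cKO, with M-cKO at 443, 518 and 603. Erythroid markers summed to 484.5, 879 and 475 FPKM in Ctrl, to 417, 358 and 440 in F-cKO, with M-cKO at 486, 581 and 708. Across the 3 replicates of each group, endothelial markers ran, in the same order of groups, from 57.4 to 61.4, from 42.7 to 47.9 and from 46.4 to 64.3, and pericyte markers from 36.8 to 40.8, from 25.7 to 30.8 and from 27.8 to 39.4. The part of these cells in the H19 and Igf2 values was not tested.

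**Figure D4:**
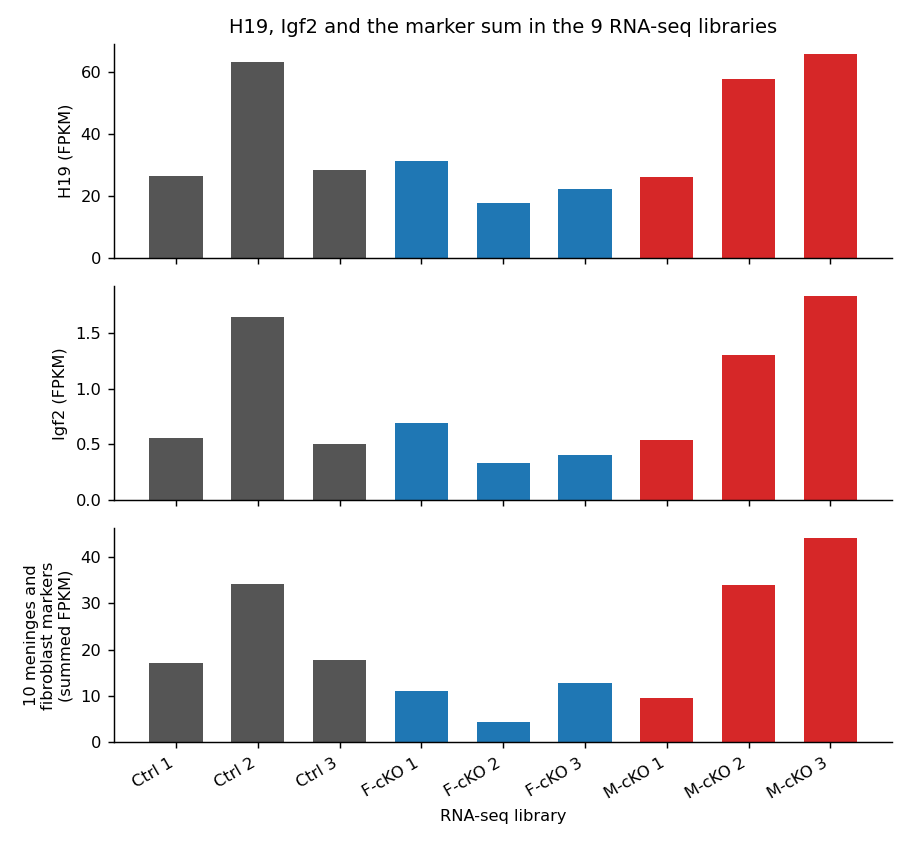
H19, Igf2 and the summed FPKM of 10 meninges and fibroblast markers in each RNA-seq library, with bars from 0 coloured by group (grey Ctrl, blue F-cKO, red M-cKO). Ctrl replicate 2, M-cKO replicate 2 and M-cKO replicate 3 are the 3 highest libraries in every panel.

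H19 had 89 to 273 Ribo-seq counts per library, and these did not follow its RNA. They stood at 2.70, 6.68 and 8.47 CPM in Ctrl, at 11.2, 14.5 and 8.12 in F-cKO, with M-cKO at 4.44, 8.83 and 9.502, with a log2 fold change of 0.92 ± 0.46 in F-cKO (adjusted p = 0.730, edgeR). The F-cKO libraries overlapped Ctrl through replicate 3. Igf2 counts in Ribo-seq were blank in 8 of 9 libraries and were restored from the RPKM values, as 13, 17 and 16 in Ctrl, 11, 4 and 9 in F-cKO, with M-cKO at 6, 14 and 13. At this depth no difference in Igf2 footprints was detectable, with restored log2 fold changes of -0.29 in F-cKO (adjusted p = 0.841, edgeR) and 0.30 in M-cKO (adjusted p = 0.716). Of the microRNA genes they host, Mir675 inside H19 had 0 counts in all 9 Ribo-seq libraries after restoring, and Mir483 inside Igf2 had 22, 57 and 12 in Ctrl, 4, 1 and 34 in F-cKO, with M-cKO at 12, 31 and 19.

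Cdkn1c (ENSMUSG00000037664, chr7:143458339-143461059), which encodes the CDK inhibitor p57, was among the most abundant members and was not called in any comparison. Its transcript stood at 74.3, 101.3 and 79.7 CPM in Ctrl, at 77.7, 70.7 and 85.1 in F-cKO, with M-cKO at 71.1, 89.6 and 102.9. Ctrl replicate 2, M-cKO replicate 2 and M-cKO replicate 3 were thus the highest, as for H19, Igf2 and the meningeal markers. The part of such cells in the Cdkn1c value was not tested. The groups overlapped, with log2 fold changes of -0.14 ± 0.11 in F-cKO (adjusted p = 0.404, edgeR) and 0.04 ± 0.14 in M-cKO (adjusted p = 0.860). In M-cKO against F-cKO the value of 0.17 ± 0.12 passed the threshold only without M-cKO replicate 1, at 0.32 (adjusted p = 0.0455, edgeR). Its footprints stood at 36.1, 38.2 and 38.1 CPM in Ctrl, at 39.7, 17.8 and 43.9 in F-cKO, with M-cKO at 24.8, 59.1 and 45.3, with both knockout groups spreading to either side of Ctrl. Of 4 other CDK inhibitors tested, 3 rose in M-cKO RNA-seq, beside 15.5% of all genes, namely Cdkn1a (p21) by 1.03 ± 0.12 on the log2 scale (adjusted p = 0.000139), Cdkn2d by 0.55 ± 0.07 and Cdkn2c by 0.53 ± 0.08 (edgeR). In M-cKO footprints 2 of the 4 rose, beside 7.13% of all genes, Cdkn2d and Cdkn2c, by 0.66 ± 0.11 (adjusted p = 0.0133) and 1.08 ± 0.30 (adjusted p = 0.0491, edgeR). In F-cKO RNA-seq only Cdkn1b (p27) of the 4 was called, beside 11.5% of all genes called higher, at 0.28 ± 0.06 (adjusted p = 0.0164, edgeR).

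Counted over all members, 3 of the 9 tested passed in F-cKO against Ctrl RNA-seq, beside 21.1% of the 16944 genes tested, with 2 higher (beside 11.5%) and 1 lower (beside 9.57%). In M-cKO against Ctrl RNA-seq 1 of 8 passed, as higher, beside 29.6% of 16968 genes in either direction and 15.5% higher. In M-cKO against F-cKO RNA-seq 6 of 8 passed, beside 27.4% of 16802 genes, 13.1% higher and 14.3% lower. These 6 were Plagl1 and Peg3, lower in M-cKO, and Ndn, Mirg, H19 and Igf2, higher in M-cKO. The 3 comparisons share libraries and are not independent of each other. Groups did not overlap for 3 of 9, 1 of 8 and 4 of 8 members, beside 41.5%, 44.8% and 43.7% of the genes tested. The median log2 fold change of the tested members was -0.03 in F-cKO, 0.16 in M-cKO and 0.26 between the knockouts, beside -0.01, -0.01 and 0.00 for all genes. Meg3 passed the filter on low counts in the F-cKO comparison alone, and Dlk1 in none.

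In Ribo-seq 9 members were tested in each comparison and edgeR called none, beside 0.0% of all genes in F-cKO against Ctrl, 14.6% in M-cKO against Ctrl (7.13% higher and 7.5% lower) and 0.0% between the knockouts. The 14.6% stands for 2093 genes. That number became 390, 177 and 461 without Ctrl replicates 1, 2 and 3 in turn, and 35 in a single fit over all groups. In the same order of comparisons DESeq2 called 0, 2 and 0 members. An unadjusted p below 0.05 in edgeR was reached by 0, 2 and 1 members, beside 318 of 14335, 4876 of 14314 and 1154 of 14262 genes. Over all genes DESeq2 called 6, 3117 and 200, so few genes of any kind were called in F-cKO footprints. Groups did not overlap for 0, 1 and 1 of the 9 members, beside 7.86%, 39.0% and 16.1% of the genes tested, the single member being Plagl1 both times. The 9 members had median log2 fold changes of 0.54, 0.33 and 0.07 in footprints, beside 0.05, 0.00 and -0.07 for all genes.

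**Figure D5:**
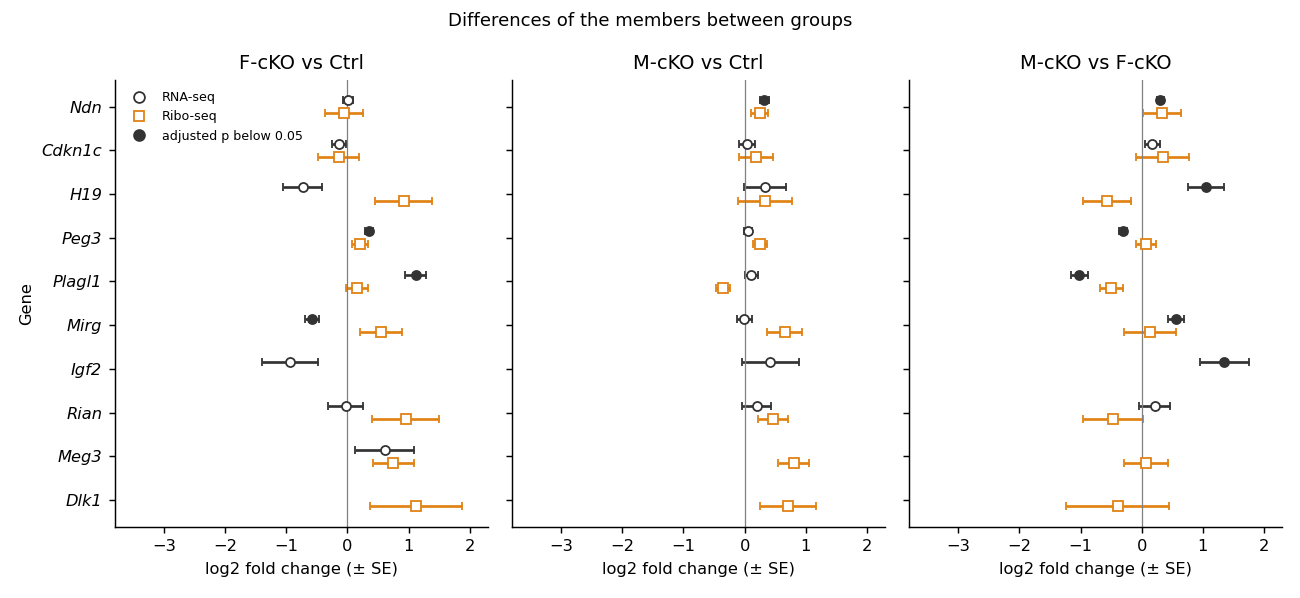
Log2 fold change with SE of each member in the 3 comparisons, for RNA-seq (circles) and Ribo-seq (squares), with filled symbols where the adjusted p was below 0.05 and no symbol where a member was not tested. Filled symbols occur only for RNA-seq, and in F-cKO the RNA-seq and Ribo-seq values stand apart for H19 (-0.73 and 0.92), Mirg (-0.58 and 0.54) and Plagl1 (1.12 and 0.16).

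Translational efficiency, the footprint level relative to the transcript level, was tested as the interaction of assay and genotype. In F-cKO against Ctrl 8 members were tested and edgeR called none, beside 0.0% of 13225 genes. DESeq2 called no member, beside 47 genes. An unadjusted p below 0.05 in edgeR was reached by 3 members, beside 1228 genes. These 3 were Plagl1, at -0.9993 ± 0.28 (adjusted p = 0.432, edgeR), Mirg, at 1.08 ± 0.35 (adjusted p = 0.450), and H19, at 1.61 ± 0.63 (adjusted p = 0.519). Plagl1 had a ratio of mean RPKM to mean FPKM of 1.39 in Ctrl, 0.687 in F-cKO, with M-cKO at 0.987. In M-cKO against Ctrl edgeR called none of the 7 members tested, beside 3.07% of 13208 genes (1.89% higher and 1.18% lower). DESeq2 called no member, beside 1044 genes. An unadjusted p below 0.05 in edgeR was reached by 2 members, beside 2841 genes. They were Mirg at 0.72 ± 0.31 (adjusted p = 0.192) and Plagl1 at -0.40 ± 0.17 (adjusted p = 0.202, edgeR). Without M-cKO replicate 3 of Ribo-seq, Mirg passed at 0.96 ± 0.22 (adjusted p = 0.0213, edgeR). Between the knockouts edgeR called none of 7, beside 0.0% of 13162 genes, and DESeq2 none, beside 25 genes. An unadjusted p below 0.05 in edgeR was reached by 3 members (H19, Peg3 and Plagl1), beside 541 genes. In Ctrl the ratio was 2.16 for Peg3, 1.70 for Ndn and 0.542 for Cdkn1c, and 0.113 for Igf2, and among the noncoding members 104.7 for Meg3, 31.8 for Rian, 0.445 for Mirg and 0.0750 for H19, beside a median of 0.790 over 25038 genes with a value in both assays. The Meg3 and Rian ratios rest on RNA-seq levels of 0.0226 and 0.123 FPKM and became 3.29 and 4.36 with 1 added to both levels. Whether the Ribo-seq counts of the noncoding members came from translating ribosomes was not tested. The Igf2 ratio rests on few footprints and became 0.202 with 0.1 and 0.580 with 1 added to both levels.

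Other imprinted genes were read from a list of 34. In F-cKO RNA-seq 8 of 29 tested rose and 1 fell, beside 11.5% of all genes called higher and 9.57% lower, with a median log2 fold change of 0.14 beside -0.01 for all genes. Peg10, a retrotransposon-derived gene, rose by 0.88 ± 0.10 (adjusted p = 0.00294, edgeR), the ubiquitin ligase gene Ube3a by 0.49 ± 0.06, Peg12 by 0.84 ± 0.15, Zdbf2 by 0.60 ± 0.11 and Mest by 0.45 ± 0.08, while the potassium channel gene Kcnk9 fell by 0.93 on the log2 scale (adjusted p = 0.0268). In M-cKO RNA-seq 12 of 28 rose and 6 fell, beside 15.5% of all genes higher and 14.1% lower, with a median of 0.18 beside -0.01. Magel2, a MAGE family gene beside Ndn, rose by 1.35 ± 0.18 (adjusted p = 0.000342, edgeR), Peg10 by 1.14 ± 0.14, Nnat by 0.65 ± 0.07, Zdbf2 by 0.81 ± 0.12 and Asb4 by 1.49 ± 0.25. Of the 5 falls named here 3 were noncoding RNAs, Kcnq1ot1 at -1.08 ± 0.17 (adjusted p = 0.00104), Peg13 at -0.22 ± 0.07 and Airn at -1.36 ± 0.44, and the others were Impact at -0.48 ± 0.09 and Zim1, a neighbour of Peg3, at -0.74 ± 0.15 (edgeR). Between the knockouts 4 of 29 were higher and 6 lower in M-cKO, beside 13.1% and 14.3% of all genes. In M-cKO footprints, where 7.13% of all genes were called higher and 7.5% lower, 1 of 27 rose, Peg12 by 1.05 ± 0.23 (adjusted p = 0.0272), and 2 fell, Peg13 at -1.14 ± 0.16 and Snrpn at -0.65 ± 0.12 (adjusted p = 0.0188, edgeR). In M-cKO translational efficiency, with 1.89% of all genes higher and 1.18% lower, 2 of 26 were called, and Kcnq1ot1 was higher at 2.04 ± 0.39 and Peg13 lower at -0.85 ± 0.18 (adjusted p = 0.0177 and 0.0276, edgeR).

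The genes around Igf2 in the insulin-like growth factor pathway were read from a list of 17 genes for a ligand, receptors, docking proteins, binding proteins and Igf2 mRNA-binding proteins. In F-cKO RNA-seq 6 of 16 tested rose and 2 fell, beside 11.5% of all genes higher and 9.57% lower. Igf2bp2 and Igf2bp3, whose products bind Igf2 mRNA, rose by 0.81 ± 0.13 and 0.61 ± 0.10 (adjusted p = 0.00443 and 0.00536, edgeR), and the receptor genes Igf1r and Insr by 0.33 ± 0.07 and 0.24 ± 0.06. The binding protein genes Igfbp7 and Igfbp3 fell by 0.69 and 0.27 on the log2 scale. In M-cKO RNA-seq 9 of 16 rose and 2 fell, beside 15.5% and 14.1% of all genes. The docking protein genes Irs2 and Irs4 rose by 0.56 ± 0.07 and 1.99 ± 0.36 (adjusted p = 0.000183 and 0.00200, edgeR), and Igfbp3, which sequesters the growth factors, fell by 1.27 on the log2 scale (adjusted p = 1.81e-05). In M-cKO footprints, beside 7.13% of all genes higher and 7.5% lower, 3 of 14 rose, Igf2bp1, Igf2bp2 and Igfbp5, with Igf2bp1 at 0.73 ± 0.14 (adjusted p = 0.0184), and Igfbp3 fell at -0.90 ± 0.21 (adjusted p = 0.0313, edgeR).

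Likeness of pattern was taken over the 9 RNA-seq libraries as the smallest root mean square difference of centred log2 CPM among 17376 genes. H19 and Igf2 were each other's nearest gene. Plagl1 was nearest to Sema5a, with a difference of 0.12 against a root mean square of 0.54 for Plagl1 itself. Peg3 was nearest to Filip1 at 0.04, Ndn to Insyn1 at 0.05, Cdkn1c to Tbx2 at 0.07, Mirg to Kcnk4 at 0.09, Rian to Cyp2u1 at 0.10 and Meg3 to 0610040B10Rik at 0.11. For the last 2 the few reads per library limit what the nearest gene can show.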

How the data were processed

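RNA-seq and Ribo-seq were each measured in 9 cortical libraries. The authors deposited raw read counts and FPKM for RNA-seq and raw counts and RPKM for Ribo-seq. Per the labels and methods, RNA-seq reads were aligned with HISAT2 2.0.5, and Ribo-seq reads were trimmed, mapped with TopHat2 and counted with HTSeq, on mm10. The annotation used for counting is not given in the sources used here. Deposited Ribo-seq counts were blank in 8 libraries for 40490 of 54838 genes. These genes stayed out of the main tests, and 12053 were restored from the deposited RPKM as an alternative, with a largest deviation of 0.0003 counts where both were known. Counts were tested with edgeR 4.0.16 in R 4.3.3 (minimum count 10, minimum total 15, TMM scaling, quasi-likelihood test per pair of groups, Benjamini-Hochberg adjustment over all genes, threshold 0.05), and translational efficiency as an interaction over 12 libraries. DESeq2 1.42.0, other scalings and filters and leaving out each library were alternatives. The fits were also run on simulated data, whose outcome is not given here. Gene positions came from RefSeq (GRCm38.p6). Named genes were all members, up to 5 called genes of each list and direction by adjusted p, and the nearest gene to each member. The members and lists were chosen with earlier results of these data known.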

Additional observations from a re-analysis of the deposited data

Results flagged for a closer look

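For 6 of the 8 members tested the 2 knockouts differed from each other in RNA-seq by the direct test of M-cKO against F-cKO, beside 27.4% of all genes. That test compares their effects because both share the same Ctrl. The log2 fold changes were -1.02 for Plagl1, -0.31 for Peg3, 0.30 for Ndn, 0.57 for Mirg, 1.05 for H19 and 1.35 for Igf2. Plagl1, Peg3, Ndn and Mirg, 4 of the 8, had groups that did not overlap, beside 43.7% of all genes. These 4 passed the test in all 11 alternative fits. H19 passed in 6 and Igf2 in 5 of 11.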

How the results depend on the processing

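The RNA-seq calls of Plagl1, Peg3, Mirg and Ndn against Ctrl, and between the knockouts, held in all 11 alternatives. With no filter on low counts 5 members were called in F-cKO and 2 in M-cKO RNA-seq, beside 4430 of 30597 and 5530 of 30551 genes. Leaving out a library gave 1 to 3 members in M-cKO RNA-seq, beside 3546 to 4657 genes. DESeq2 called 2 members in M-cKO footprints, beside 3117 genes. With a library left out 0 to 2 members were called there, beside 177 to 2547 genes. In M-cKO translational efficiency it was 0 to 1, beside 65 to 1054 genes. Of the microRNA genes, a single fit over all groups called 1 in M-cKO against Ctrl and 1 between the knockouts, beside 29 and 20 of all genes called higher. DESeq2 called 5 between the knockouts, beside 173 of all genes called higher. For these 2 comparisons leaving out a library gave 2 to 16 and 0 to 1, beside 115 to 1303 and 0 to 5 of all genes called higher. The causes were not tested.

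Signs changed in 57 alternative values of 25 member results, none with an adjusted p below 0.05 in either fit. Mirg in M-cKO RNA-seq moved from -0.002165 to 0.007788 with DESeq2, 0.01944 with no filter and 0.005432 with a single fit, and Cdkn1c translational efficiency in F-cKO to 1.153e-05 with scaling from protein-coding genes. Leaving out a library gave these ranges of log2 fold changes. In F-cKO RNA-seq they were -0.04664 to 0.09195 for Ndn, -0.221 to 0.004353 for Cdkn1c and -0.2857 to 0.1726 for Rian. In M-cKO RNA-seq they were -0.08538 to 0.1884 for Cdkn1c, -0.0219 to 0.2171 for Plagl1 and -0.04748 to 0.09282 for Mirg. In F-cKO footprints they were -0.2594 to 0.225 for Ndn, -0.3491 to 0.1601 for Cdkn1c and -0.2151 to 1.582 for Dlk1. In M-cKO footprints they were -0.09704 to 0.473 for Cdkn1c and -0.01795 to 0.6928 for H19. In M-cKO against F-cKO footprints they were -0.02468 to 0.1748 for Peg3, -0.8889 to 0.3225 for Rian, -0.1829 to 0.4797 for Meg3, -0.1415 to 0.4954 for Mirg and -0.854 to 0.9447 for Dlk1. In F-cKO translational efficiency they were -0.3356 to 0.2197 for Ndn, -0.2638 to 0.3065 for Cdkn1c and -0.2682 to 0.3718 for Meg3. In M-cKO translational efficiency they were -0.09765 to 0.1429 for Ndn, -0.4421 to 0.4185 for H19 and -0.0979 to 0.4878 for Cdkn1c. In M-cKO against F-cKO translational efficiency they were -0.214 to 0.301 for Ndn, -0.0905 to 0.5037 for Cdkn1c and -0.9831 to 0.1509 for Rian.

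No pairing by replicate number was seen between the groups of an assay, though correlations over 3 libraries per group cannot exclude it. Pairing between the assays was not tested. Correlations of same-numbered libraries' deviations from their group means ran from -0.144 to 0.163 in RNA-seq and from -0.278 to 0.156 in Ribo-seq, and in no comparison were all above 0.1. With the replicate block, 3 and 1 members were called in F-cKO and M-cKO RNA-seq, and H19 and Igf2 lost their calls between the knockouts (adjusted p = 0.0696 and 0.0863, edgeR). Over all genes the block called 2130 instead of 3576 in F-cKO RNA-seq and 1319 instead of 2093 in M-cKO footprints. H19 also lost that call with DESeq2 (adjusted p = 0.0631) and Igf2 with a single fit over all groups (adjusted p = 0.0567, edgeR). The depth of F-cKO replicate 2 and the low counts of Dlk1, Igf2 and the microRNA genes limit the footprint comparisons.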
